A study of Rattus norvegicus with 14 samples.

Results

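The genes described here encode the transforming growth factor beta (TGF-beta) superfamily signals of skeletal muscle: TGF-betas, bone morphogenetic proteins (BMPs), activins and myostatin, with their antagonists, receptors, Smad transducers and Id target genes. They were taken as 36 gene symbols, matched to the gene name that the array design gives each probe. A probe was present for 35 of the 36, and for 34 it stood well above background on 4 or more of the 14 arrays, out of 22808 gene names or identifiers measured in all. Smad6 was not analysed here, and the Smad3 probe was too dim to be tested.

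RNA came from plantaris, a fast-twitch calf muscle, of Wistar rats, with 1 Agilent array hybridised per muscle in 1 colour. Control rats (n = 4) were fed 1000 IU vitamin D per kg diet. Depletion rats (n = 6) were fed a depleted diet. Repletion rats (n = 4) went from that diet to one holding the vitamin again. All groups were the same strain with no genetic change. No source used here gives the age of the rats, how long they ate each diet, or the dose in the depleted and restored diets. The titles name the muscles as biological replicates. Depletion replicate 1 has a diet field that names the depletion-repletion diet against its title; it was kept as depletion, and values without it are given beside several genes.

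Ligands of this superfamily bind pairs of type II and type I serine/threonine kinase receptors at the cell surface. Activated type I receptors phosphorylate receptor-regulated Smads, which join Smad4 and enter the nucleus: myostatin, activins and TGF-betas signal mainly through Smad2 and Smad3, and BMPs through Smad1, Smad5 and Smad9. In muscle, myostatin and activins limit fibre size, follistatin binds and neutralises them, and BMP signalling favours growth.

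The probe for Mstn, the gene of myostatin, is shown because it determines what the myostatin measurement reads. It lies on the minus strand at chr9:45426831-45426890 of rn4, and is printed as the array design gives it, with the stop codon in capitals. Its first reading frame holds 20 codons, of which only the last is a stop, so the probe reads the end of the coding sequence.
Mstn probe: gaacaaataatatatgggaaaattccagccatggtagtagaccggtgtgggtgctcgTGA

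Promoters are shown for 2 members as examples of the sequence next to the start site: Smad7, an inhibitory Smad whose transcription TGF-beta and BMP signals induce, and Inhbb, which had the smallest unadjusted p between repletion and depletion. The sequences are the 250 bases before the RefSeq start site on GRCr8, at chr18:71263258-71263507 on the plus strand for Smad7 and chr13:33089374-33089623 on the minus strand for Inhbb. Capitals mark 2 motifs that Smad proteins can bind, GGCGCC and GTCT, searched on both strands, where GTCT on the other strand reads AGAC.
Smad7: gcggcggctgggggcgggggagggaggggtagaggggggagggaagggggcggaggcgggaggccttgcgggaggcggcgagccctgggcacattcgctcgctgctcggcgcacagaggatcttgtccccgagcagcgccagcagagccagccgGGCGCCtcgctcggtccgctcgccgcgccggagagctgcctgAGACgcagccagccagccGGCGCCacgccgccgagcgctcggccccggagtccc
Inhbb: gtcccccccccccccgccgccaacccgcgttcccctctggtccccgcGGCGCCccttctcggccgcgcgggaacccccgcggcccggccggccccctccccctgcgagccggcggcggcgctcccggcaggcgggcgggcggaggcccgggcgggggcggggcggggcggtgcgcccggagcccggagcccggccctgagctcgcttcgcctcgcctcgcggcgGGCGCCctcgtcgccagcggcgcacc

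Smad7 had GGCGCC at 96 to 91 and at 36 to 31 bases before the start and GTCT at 54 to 51, and Inhbb had GGCGCC at 203 to 198 and at 26 to 21. Promoters were available for 29 members, of which Smad2 had 2. GGCGCC was found in 10 of these 30 promoters (33.3%) against 8.69% of all 33469 promoters. The member promoters had a median of 62.8% G and C against 51.2% over all promoters, and the motif is itself all G and C. GTCT was found in 20 of 30 (66.7%) against 84.0% of all, and CAGACA in 2 of 30 (6.67%) against 17.2%. The BMP-type arrangement GGCGCC, 5 bases, GTCT was in 0 of 30 and in 0.0418% of all. These matches describe letters near the start site.

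A level is the log2 of a probe's signal over the 75th percentile of its array, so each unit is a doubling, and probes of different genes are not compared in level. Differences are log2 estimates ± SE from 1 limma fit over all 26387 kept probes with slide as a block, since the 14 arrays lay on 5 slides that each held 2 to 4 arrays. A call is a Benjamini-Hochberg adjusted p under 0.05 over those probes. In bulk tissue, fewer cells of a type and less RNA per cell cannot be told apart. On each array 82.8% to 88.1% of spots stood well above background, with a 75th percentile of 1781 to 2387 intensity units. Precision is limited by how few arrays there are.

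No gene of the set was called in any of the 3 diet comparisons. Over all probes 0 of 26387 (0%) were called in each comparison. The smallest adjusted p of a member was 0.832 between depletion and control, 0.933 between repletion and depletion and 1.000 between repletion and control. In depletion against control 2.13% of all probes were higher with an unadjusted p under 0.05 and 2.69% lower, and 0 of 34 members, read by their brightest probes, were among either. A second, dimmer probe of Tgfbr2 was among the lower ones. Between repletion and depletion 2.5% of all probes were higher and 0.955% lower at that threshold, and among the members Bmp7 was higher and Inhbb and Fst lower. Without depletion replicate 1, Bmp7 no longer had such a p. The same held without control replicate 4, repletion replicate 1 or repletion replicate 3, and with array weights or normexp background correction, among other settings. Between repletion and control the figures over all probes were 1.3% higher and 0.694% lower, again with 0 members in either direction.

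The median SE of a member was 0.23 between depletion and control, 0.21 between repletion and depletion and 0.25 between repletion and control. The 95% interval of the difference lay between -1 and 1 for 28, 30 and 25 of the 34 members in those comparisons, so for these members the interval excludes a change of 1 log2 unit. For the others it does not. The median estimate was -0.04, -0.03 and -0.08 in the same order, against -0.02, 0.04 and 0.01 over all probes, and 14, 14 and 12 of the 34 members were higher. Without control replicate 4 the count was 7 between depletion and control and 6 between repletion and control, and without repletion replicate 1 the latter was 17. Groups overlapped for every measured member in every comparison. The share of all probes whose groups overlapped was not computed, so the overlap is not read as a trait of this set.

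**Figure D1:**
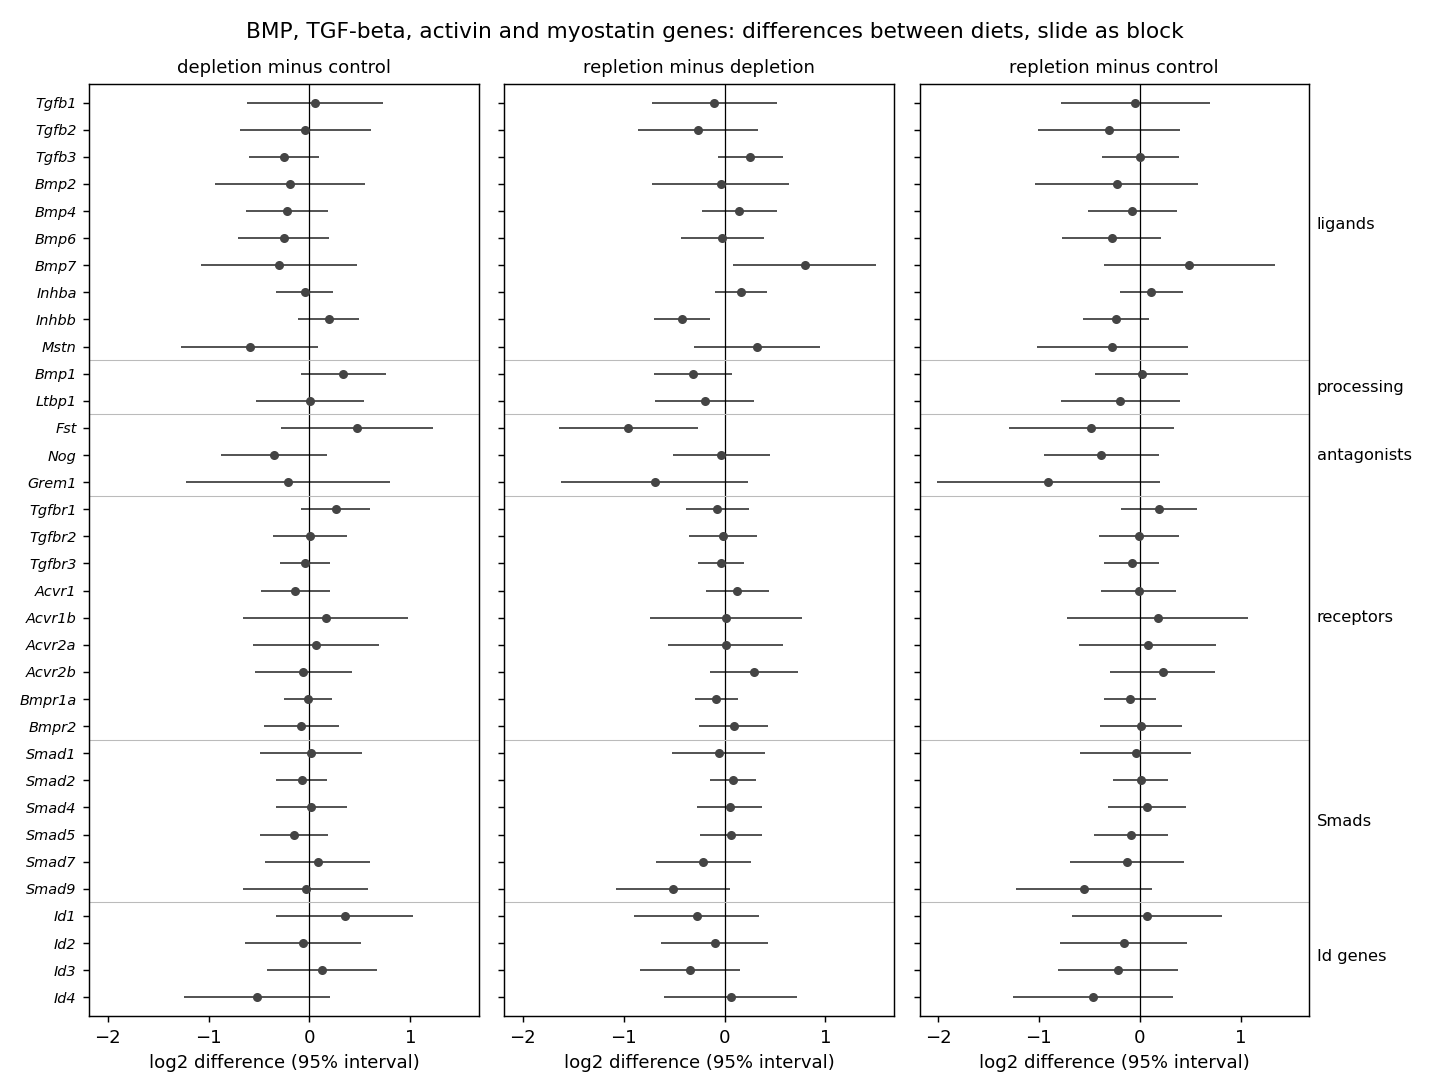
Log2 differences of the 34 measured genes between diet groups, with slide as a block; points are estimates and bars 95% intervals, and genes are ordered by role. The intervals of Bmp7, Inhbb and Fst between repletion and depletion are the only ones that leave out 0.

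Mstn was the ligand with the largest estimate against control and had the smallest unadjusted p of the set in that comparison. Its control levels were -4.75, -4.91, -4.04 and -3.97 for replicates 1 to 4, and its depletion levels ran from -5.37 to -3.81 with a median of -4.89. Repletion levels were -4.61, -4.09, -4.68 and -4.46. Of the 6 depletion arrays 5 lay below the control mean of -4.42, but the highest of all 14 values was also a depletion array.

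The fitted Mstn difference between depletion and control was -0.59 ± 0.30, a ratio of 0.663, with a 95% interval from -1.27 to 0.09 and an adjusted p of 0.832. Depletion was lower than control on each of the 3 slides that held both, by -0.54 on slide 1, -0.64 on slide 2 and -1.26 on slide 4. Without control replicate 4 or depletion replicate 5, the pair that made up slide 4, the estimate was -0.35. Between repletion and depletion the difference was 0.32 ± 0.28 and between repletion and control -0.27 ± 0.33, neither larger than the spread between arrays.

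Inhbb encodes the beta B chain of activin and inhibin, and its brightest probe lies at chr13:32171058-32171117 of rn4. Control levels were -2.36, -2.10, -2.52 and -2.57, depletion levels ran from -2.53 to -1.53 with a median of -1.99, and repletion levels were -2.45, -2.86, -2.24 and -2.25. All 4 repletion arrays lay below the depletion mean of -2.04, although the groups overlapped.

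The Inhbb difference between repletion and depletion was -0.42 ± 0.12, a ratio of 0.747, with a 95% interval from -0.70 to -0.15 and an adjusted p of 0.933. It was negative on all 4 slides with both diets, from -0.66 on slide 1 to -0.13 on slide 5. A second Inhbb probe, 1107 bases away on rn4, gave 0.16 ± 0.15 for the same comparison, in the opposite direction. The 2 probes had a correlation of 0.25 over the 14 arrays. With the mean of both probes the difference was -0.13, so the Inhbb value depends on which probe is read.

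Bmp7, a BMP ligand known for its part in kidney and bone, was read by a probe at chr3:163723705-163723764 of rn4. Control levels were -4.70, -4.47, -4.08 and -3.79, and depletion levels ran from -5.39 to -3.52 with a median of -4.65. Repletion levels were -3.71, -3.83, -4.12 and -3.67. The repletion arrays lay close together (SD 0.20) and the depletion arrays spread widely (SD 0.72), with depletion replicate 2 above all repletion arrays.

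The Bmp7 difference between repletion and depletion was 0.79 ± 0.32, a ratio of 1.73, with a 95% interval from 0.08 to 1.5 and an adjusted p of 0.933. Without depletion replicate 1 it was 0.65. It was 1.58 on slide 1, 0.62 on slide 3 and 1.15 on slide 5, but -0.30 on slide 2. Against control, Bmp7 was -0.30 ± 0.34 in depletion and 0.49 ± 0.38 in repletion.

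Of the other ligands, Tgfb1 and Bmp4 varied less between diets than between arrays. Tgfb1, the most widely studied TGF-beta, had control levels of -2.89, -3.97, -3.52 and -3.94, depletion levels from -4.36 to -3.34 with a median of -3.45, and repletion levels of -3.86, -3.77, -3.73 and -3.48. Its differences were 0.06 ± 0.30 for depletion against control, -0.10 ± 0.28 for repletion against depletion and -0.05 ± 0.33 for repletion against control. Bmp4, which signals in embryonic patterning and in muscle precursors, had control levels of -1.54, -1.57, -1.99 and -1.42. Its depletion levels ran from -2.28 to -1.29 with a median of -1.72, and its repletion levels were -1.70, -2.13, -1.58 and -1.29. The Bmp4 estimates in the same order were -0.22 ± 0.18, 0.15 ± 0.16 and -0.07 ± 0.20. Without depletion replicate 1 the first 2 were -0.018 and 0.019. Counting all 10 ligands (Tgfb1, Tgfb2, Tgfb3, Bmp2, Bmp4, Bmp6, Bmp7, Inhba, Inhbb and Mstn), 8 were lower in depletion than in control with a median of -0.20, and 0 had an unadjusted p under 0.05. Under 4 other scalings or sources of the values 8 or 9 of the 10 were lower. Over all probes 45.3% were higher in this comparison, and 26.2% with normexp background correction, the setting that gave 9. Ligand counts with arrays left out were not computed. Between repletion and depletion 5 were higher and 5 lower, with a median of 0.06.

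**Figure D2:**
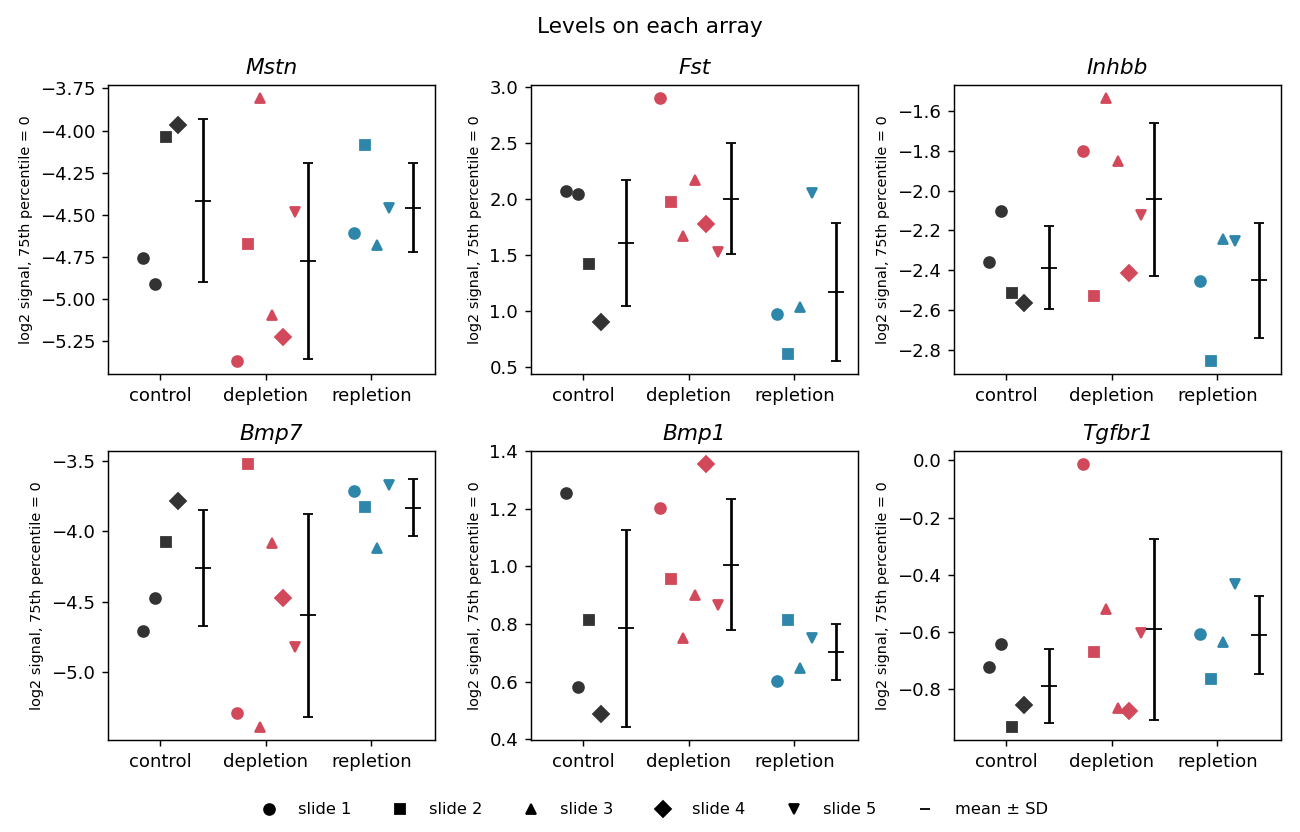
Level of 6 genes on every array as log2 signal relative to the array's 75th percentile, by diet; each point is 1 muscle, its shape gives the slide, and bars show mean ± SD (n = 4, 6 and 4). Each panel has its own axis, and the groups overlap in every panel.

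Follistatin, encoded by Fst, binds activins and myostatin and keeps them from their receptors. Its probe lies at chr2:46542246-46542305 of rn4. Control levels were 2.08, 2.05, 1.42 and 0.90, depletion levels ran from 1.53 to 2.90 with a median of 1.88, and repletion levels were 0.98, 0.62, 1.04 and 2.06. Repletion replicates 1 to 3 lay below every depletion array, while repletion replicate 4 lay above the depletion median.

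The Fst difference between repletion and depletion was -0.95 ± 0.31, a ratio of 0.516, the largest estimate of the set in that comparison. Its 95% interval ran from -1.64 to -0.27 and its adjusted p was 0.933. Repletion was lower by -1.93 on slide 1, -1.35 on slide 2 and -0.88 on slide 3, and higher by 0.52 on slide 5. Without depletion replicate 1, the highest array, it was -0.80, and without repletion replicate 4 it was -1.37. Between depletion and control Fst was 0.47 ± 0.33 (adjusted p = 0.832), positive on all 3 slides with both diets but 0.24 without depletion replicate 1. Between repletion and control it was -0.48 ± 0.36, and -0.06 without repletion replicate 1.

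Noggin and gremlin 1 are secreted BMP antagonists. Nog had control levels of -5.78, -5.71, -5.08 and -5.43, depletion levels from -6.59 to -4.84 with a median of -5.55, and repletion levels of -6.04, -5.07, -5.30 and -5.86. The Nog difference between repletion and control was -0.38 ± 0.25, with a 95% interval from -0.95 to 0.19 and an adjusted p of 1.000. Its within-slide values were -0.29 on slide 1 and 0.0008 on slide 2, and without control replicate 4 or depletion replicate 5 the difference was -0.18. Without control replicate 3 it was -0.61, and with no slide block -0.071.

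Grem1 was well above background on 11 of 14 arrays and had the widest spread of the set, with a pooled within-group SD of 1.5. Control levels were -5.50, -5.60, -7.08 and -4.33, depletion levels ran from -7.45 to -4.60 with a median of -6.14, and repletion levels were -5.28, -9.30, -8.16 and -4.56. The lowest 2 values were repletion replicates 2 and 3, both not well above background, and the other 2 repletion arrays lay above the control mean. Its difference between repletion and control was -0.90 ± 0.49, with a 95% interval from -2.01 to 0.20 and an adjusted p of 1.000. Only slides 1 and 2 held both diets, and they disagreed in direction. On slide 1 repletion was at -5.28 against control at -5.50 and -5.60. On slide 2 repletion was at -9.30, not well above background, against control at -7.08. A second Grem1 probe gave -0.34 ± 0.37, and its levels ran against those of the first probe over the 14 arrays (correlation -0.79), so the 2 probes ordered the arrays differently. The first probe gave -0.097 in the authors' deposited values, -0.40 without repletion replicate 2 and -1.61 without repletion replicate 1.

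Bmp1 and Ltbp1 act on ligands before they reach receptors: Bmp1 encodes a metalloprotease that cleaves procollagens and latent complexes and is not itself a BMP ligand, and Ltbp1 a protein that holds latent TGF-beta in the matrix. Bmp1 had control levels of 1.26, 0.58, 0.81 and 0.49, depletion levels from 0.75 to 1.36 with a median of 0.93, and repletion levels of 0.60, 0.82, 0.65 and 0.75. The Bmp1 difference was 0.33 ± 0.19 between depletion and control (95% interval from -0.09 to 0.76, adjusted p = 0.832), positive on all 3 slides. It was 0.14 without control replicate 4 and 0.49 without control replicate 1. Between repletion and depletion it was -0.31 ± 0.17 and negative on all 4 slides, and all 4 repletion arrays lay below the depletion mean of 1.01. A second, dimmer Bmp1 probe gave 0.09 ± 0.11 and -0.05 ± 0.10 for these comparisons. Ltbp1 estimates lay between -0.20 and 0.01.

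Receptor estimates from the brightest probes lay between -0.14 and 0.29. Tgfbr1, the type I receptor for TGF-beta, had control levels of -0.72, -0.64, -0.93 and -0.86, depletion levels from -0.88 to -0.01 with a median of -0.64, and repletion levels of -0.61, -0.76, -0.64 and -0.43. Its difference between depletion and control was 0.26 ± 0.15, with a 95% interval from -0.08 to 0.60 and an adjusted p of 0.832. The highest value was depletion replicate 1, the array whose diet field contradicts its title, and without it the difference was 0.07.

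Tgfbr2, the type II receptor for TGF-beta, had control levels of -2.71, -2.52, -2.80 and -2.83, depletion levels from -2.99 to -2.40 with a median of -2.63, and repletion levels of -2.82, -2.79, -2.51 and -2.59. Its estimates were 0.01 ± 0.16, -0.01 ± 0.15 and -0.01 ± 0.18 in the 3 comparisons. A dimmer Tgfbr2 probe, 14986 bases away, gave -0.35 ± 0.13 (adjusted p = 0.832), 0.03 ± 0.12 and -0.32 ± 0.15.

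Acvr2b, the activin type II receptor that also binds myostatin, had control levels of 0.23, 0.82, 0.45 and 1.18, depletion levels from 0.28 to 1.08 with a median of 0.45, and repletion levels of 0.86, 1.17, 0.58 and 0.99. The Acvr2b difference between repletion and depletion was 0.29 ± 0.19, and a second probe gave 0.38 ± 0.18. The 2 Acvr2b probes had a correlation of 0.97 over the arrays. Depletion against control was -0.06 ± 0.21. Over all 9 receptors, 4 were higher and 5 lower in depletion than in control, with a median of -0.01 (8 lower with normexp background correction, under which the median of all probes was -0.14), and 0 had an unadjusted p under 0.05 in any comparison. The narrowest interval was that of Bmpr1a, a type I BMP receptor, with -0.01 ± 0.11 between depletion and control.

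Among the Smads, only Smad9 ranked among the 4 members of smallest unadjusted p in a comparison. Smad9, one of the BMP-activated Smads, had control levels of -6.66, -6.38, -6.10 and -6.39, depletion levels from -8.09 to -6.02 with a median of -6.56, and repletion levels of -6.81, -7.43, -8.61 and -6.03. It was well above background on 10 of 14 arrays. The 4 arrays not well above background were repletion replicates 2 and 3 and depletion replicates 3 and 4, and 3 of these were on slide 3. The Smad9 difference was -0.51 ± 0.25 between repletion and depletion (95% interval from -1.08 to 0.05, adjusted p = 0.933) and -0.55 ± 0.30 between repletion and control (95% interval from -1.23 to 0.13, adjusted p = 1.000). In the authors' deposited values they were -0.088 and -0.093. The latter was -0.22 without control replicate 3 and -0.36 without repletion replicate 2.

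Smad3, which carries TGF-beta, activin and myostatin signals, was well above background on 2 of 14 arrays, control replicate 2 at -5.14 and depletion replicate 4 at -7.12. The remaining 12 values lay between -9.84 and -7.47 and were not well above background, so no difference is given. Smad7 had control levels of 0.06, 0.28, 0.10 and -0.02, depletion levels from -0.73 to 0.83 with a median of 0.30, and repletion levels of 0.28, -0.33, 0.18 and -0.03. Its estimates were 0.08 ± 0.23, -0.21 ± 0.21 and -0.13 ± 0.25. Of the 6 measured Smads, 3 were higher and 3 lower in depletion than in control (5 lower with normexp background correction), and Smad2, which carries the myostatin and activin signal with Smad3, differed by -0.08 ± 0.11.

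The Id genes encode inhibitors of basic helix-loop-helix factors and are direct BMP targets. Id1 had control levels of 0.11, -0.63, -0.77 and -1.71, depletion levels from -0.82 to 0.19 with a median of -0.45, and repletion levels of -0.65, -1.26, -0.08 and -0.15. Each of its values is the mean of 10 spots. The Id1 difference was 0.35 ± 0.30 between depletion and control, -0.28 ± 0.28 between repletion and depletion and 0.07 ± 0.33 between repletion and control. The control group spread over 1.82 log2 units, more than any of these differences.

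Id4 had control levels of -1.26, -1.38, -1.94 and -2.77, depletion levels from -3.28 to -1.47 with a median of -2.39, and repletion levels of -2.51, -2.01, -1.36 and -2.76. Its difference between depletion and control was -0.52 ± 0.32, with a 95% interval from -1.25 to 0.20 and an adjusted p of 0.832. It was negative on all 3 slides, from -0.51 on slide 4 to -0.15 on slide 1, and it was -0.78 without depletion replicate 1. Id2 and Id3 differed by -0.06 ± 0.26 and 0.13 ± 0.24. So 2 of the 4 Id genes were higher and 2 lower in depletion than in control, with 3 lower under normexp background correction and 3 higher in the authors' values.

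Levels also differed between slides, the glass plates that each held several arrays. In an F test of slide in the same model, 7407 of 26387 probes (28.1%) had an adjusted p under 0.05, and 8 of 34 members did (Acvr1b, Grem1, Id3, Inhba, Inhbb, Smad5, Smad9 and Tgfbr3). The F test of diet called 0 probes. Acvr1b, a type I activin receptor, averaged -2.76 on slide 2 and -5.28 on slide 5. Id3 averaged -4.96 on slide 2 and -3.23 on slide 5. Smad5, a BMP-activated Smad, was between -2.37 and -1.93 on the 3 arrays of slide 2 and between -1.79 and -0.97 on the other 11. All 3 diets on slide 2 were low for it.

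**Figure D3:**
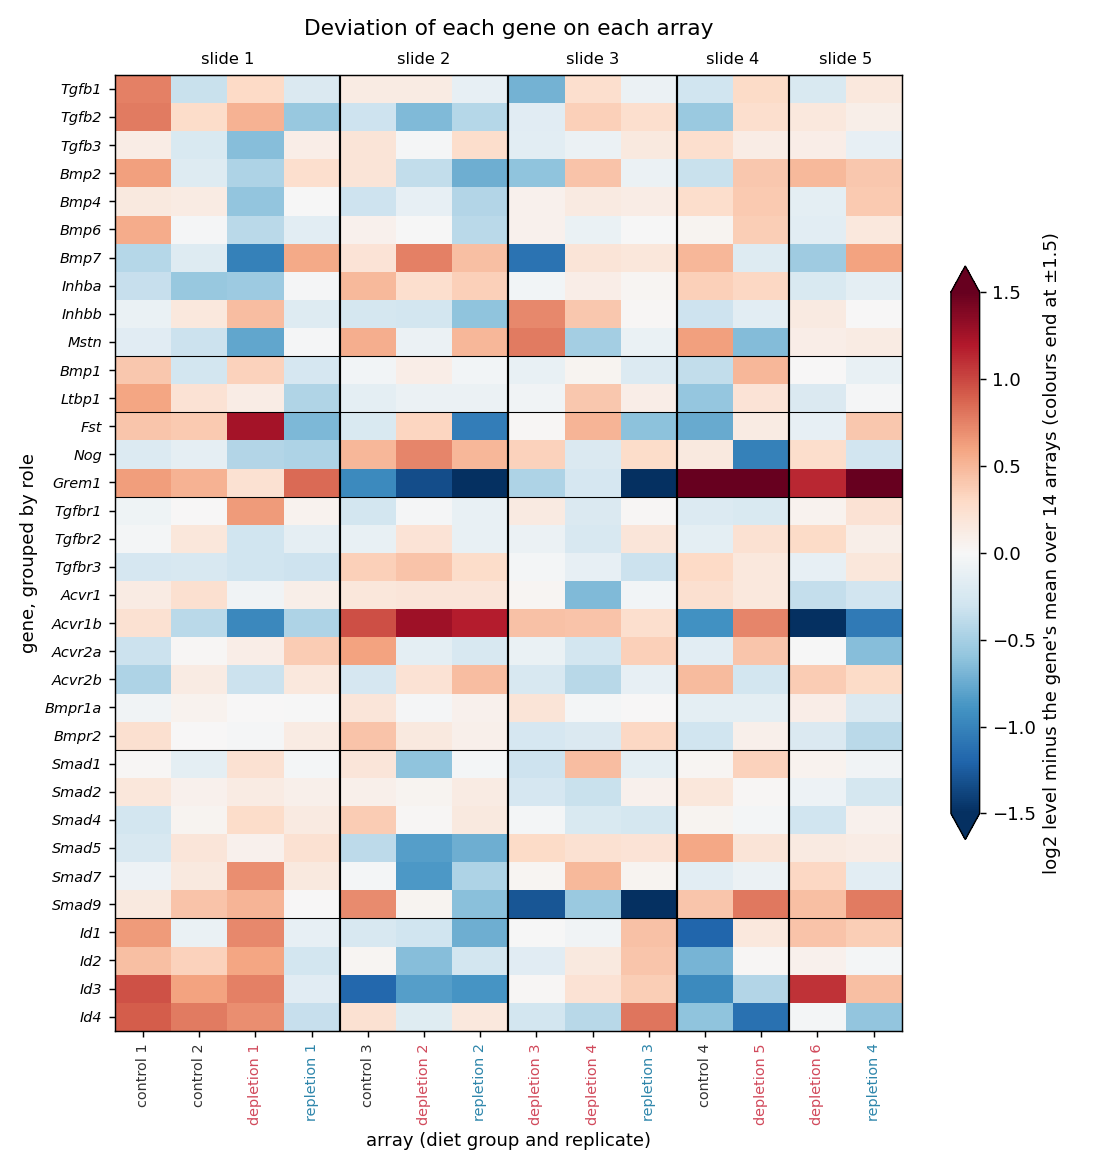
Deviation of each of the 34 genes from its own mean over 14 arrays, in log2 units, with arrays ordered by slide and labelled by diet group and replicate; colours end at 1.5 units. Several genes change colour between slides for all diets of a slide together, for example Smad5 and Acvr1b on slide 2.

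More than 1 probe was present for 7 members, and more than 1 was kept for 6 of them. In the comparison of repletion with depletion the probes of Acvr2b, Bmp1 and Grem1 gave estimates of the same sign, and those of Inhbb, Tgfbr2 and Tgfb2 did not. The 2 brighter Tgfb2 probes gave -0.26 ± 0.26 and -0.43 ± 0.29 and the dimmest gave 0.22 ± 0.15.

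**Figure D4:**
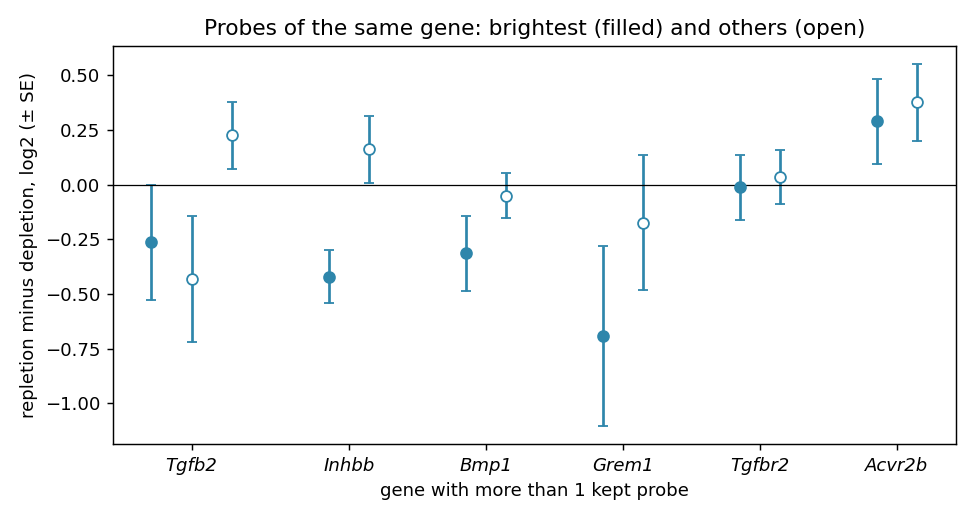
Estimates for repletion minus depletion, in log2 units ± SE, for each kept probe of the 6 genes with more than 1; the filled point is the brightest probe, which represents the gene. The Inhbb probes lie on opposite sides of 0.

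Of 94 further genes of the pathway (other ligands and latency proteins, receptors, antagonists, intracellular regulators and target genes), 87 were measured and 0 were called in any comparison. With an unadjusted p under 0.05, depletion exceeded control for 3 of the 87 genes and was below it for 1. Repletion exceeded depletion for 3 and was below it for 1, and repletion exceeded control for 4 and was below it for 1. Over all probes the shares higher and lower were 2.13% and 2.69%, 2.5% and 0.955%, and 1.3% and 0.694% in the same order of comparisons. The median of the 87 was -0.04, 0.09 and 0.06 in the same order. The smallest unadjusted p values belonged to Msx2, a BMP target transcription factor, at -0.47 ± 0.16, and Hamp, the BMP-regulated iron hormone gene, at 0.33 ± 0.12, between depletion and control (both adjusted p = 0.832). Between repletion and depletion they belonged to Amhr2, the type II receptor of anti-Müllerian hormone, at 0.81 ± 0.30, and Junb, an AP-1 subunit that TGF-beta induces, at -0.52 ± 0.20 (both adjusted p = 0.933). Between repletion and control they belonged to Bmpr1b, a type I BMP receptor, at 0.63 ± 0.18, and Sostdc1, a secreted BMP antagonist, at 0.83 ± 0.28 (both adjusted p = 1.000).

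The samples had the markers of muscle fibres on all arrays. The 10 myofibre markers, with Acta1, Ckm, Myh4, Actn3 and the slow myosin gene Myh7 among them, were well above background on 14 of 14. Their summed linear level was 1840 to 2311 in control, 1865 to 2326 in depletion and 1898 to 2430 in repletion. Markers of other cells varied more. The 9 macrophage markers were all higher in depletion than in control (median 0.48), with summed levels of 13.2 to 28.8 in control, 15.1 to 49.3 in depletion and 27.0 to 32.1 in repletion, and 1 of the 9 had an unadjusted p under 0.05. The 4 measured erythroid markers were all higher in depletion than in control (median 0.87, 2 at an unadjusted p under 0.05). They were all lower in repletion than in depletion (median -0.43). Hba-a2, also listed, had no kept probe. The summed erythroid levels were 17.5 to 37.2 in control, 21.0 to 86.4 in depletion and 22.4 to 44.3 in repletion. Depletion replicate 1, whose diet field contradicts its title, had the macrophage sum of 49.3. It also had the highest mean deviation of the erythroid markers among the depletion arrays, at 1.28 log2 units. Values of these lists without it were not computed. The summed level of the 6 Schwann cell markers reached 30.9 in repletion replicate 2, the only array above 5.88. The 14 early response genes, which respond within minutes to handling and exercise, had a median of 0.27 between depletion and control and -0.28 between repletion and depletion, with 3 lower at an unadjusted p under 0.05. Junb is in this list and among the further pathway genes. By their brightest probes, Fst, Bmp1, Id1, Inhbb and Smad7 had the same pair of signs as the erythroid and early response medians. So did Tgfb1, Tgfbr1, Tgfbr2, Smad1, Id3 and Ltbp1. Other members, such as Mstn, did not have it, and the second Inhbb probe had the opposite pair (-0.18 and 0.16). Depletion enters these comparisons with opposite signs, so a shift of the depletion arrays alone gives such a pair. The share of all probes with this pair was not computed. The adipocyte, endothelial and satellite cell medians had this pair of signs too. The part of these cells or genes in the member estimates was not tested.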

How the data were processed

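Spot intensity files from Agilent Feature Extraction 11.5.1.1 were deposited for 14 arrays; per the file headers its processed signal had background subtracted and a detrending step, and coordinates are on rn4. The deposited series table holds log2 values made by the authors and was used only as an alternative; per the submitters' processing notes limma was used, with no version given in the sources used here. Outlier and not-well-above-background marks are 0 or 1 flags, deposited in the same files.

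Outlier-marked spots were left out, spots of a probe averaged, and each array's 75th percentile subtracted on the log2 scale. Probes well above background on at least 4 arrays with at least 2 values per group were kept (26387 of 30367), and a gene's brightest probe represents it. Limma 3.58.1 in R 4.3.3 fitted the 3 groups with slide as a block, with Benjamini-Hochberg adjustment over all kept probes. P values set each difference between diets against the spread between muscles that was left after slide and diet were fitted. Data were also simulated for 26387 probes with noise independent between probes, with 100 probes changed by 1 log2 unit and 100 by 2. Changes of 1 unit were recovered at 50% between depletion and control, 53% between repletion and depletion and 49% between repletion and control. Changes of 2 units were recovered at 87%, 90% and 86%. These rates depend on the number of changed probes and are not the rates for a member of this set. Figures used matplotlib.

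The members and lists were chosen with earlier results of these data known. Values are given in full for the 4 members of smallest unadjusted p per comparison and for Mstn, Fst, Acvr2b, Tgfb1, Tgfbr2, Smad3, Bmp4 and Id1; Smad7 was added after its values were seen. Further pathway genes are named when among the 2 of smallest unadjusted p. Promoters are from RefSeq (GRCr8). Alternatives were another background correction, scaling, filter, block, weighting or probe summary, the authors' values, fits of 2 groups, depletion replicate 1 moved, and each array or slide left out.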

Additional observations from a re-analysis of the deposited data

Results flagged for a closer look

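Values in 5 groups among the 34 genes stood apart from the rest of their group by more than a set share of the group's range; 102 groups were examined, and chance flags about 1 in 20. Both Smad5 values came from slide 2: -2.37 in depletion replicate 2, where the next lowest was -1.48, and -2.28 in repletion replicate 2, where the next was -1.44. Tgfb3 was lowest in depletion replicate 1 at -1.34, the array of doubtful label, with the next at -0.86. Bmp6 was highest in control replicate 1 at -4.80, with the next at -5.29. Smad2 was lowest in repletion replicate 4 at -3.74, with the next at -3.41.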

How the results depend on the processing

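Each comparison was recomputed under 33 alternatives. In each of them 0 probes and 0 members were called, and the smallest adjusted p of a named or other member was 0.581. The median of the members stayed within 1 SD of its reported value except between repletion and control with normexp background correction (-0.17). That SD is the spread over single arrays of the members' mean level after diet and slide were fitted. It is not the error of the median, and a median could change sign within it. With arrays left out singly the median ran from -0.12 to 0.03 for depletion minus control, -0.11 to 0.01 for repletion minus depletion and -0.12 to -0.01 for repletion minus control. Normexp also moved all probes: their median was -0.14 and 26.2% were higher between depletion and control (45.3% as reported), and -0.12 and 27.3% between repletion and control (53.6% as reported), with 6 of 34 members higher in both. Median centring and quantile normalization gave 47.9% and 51.3% higher between repletion and depletion, against 58.9%, and normexp 47.3%. Of 31 member values followed, 17 kept their sign throughout, among them Mstn between depletion and control (-0.78 to -0.26), Fst (-1.37 to -0.65), Inhbb (-0.52 to -0.13) and Bmp7 (0.43 to 1.09) between repletion and depletion. No alternative read the second Inhbb probe alone, which gave 0.16 ± 0.15. Inhbb and Bmp7 were followed for their small unadjusted p in these same data, so a kept sign is not separate support. At an unadjusted p under 0.05, 0 to 1 members were higher and 0 to 3 lower between depletion and control, 0 to 2 and 0 to 4 between repletion and depletion, and 0 to 1 and 0 to 3 between repletion and control. With depletion replicate 1 counted as repletion none had such a p. The replicate block changed no call. Deviations of same-numbered arrays correlated between -0.49 and 0.72. The 5 of 12 such pairs that share a slide correlated between 0.23 and 0.72. Number and slide overlap in these pairs, so the values do not tell whether the numbers pair the muscles.

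Values that changed sign were as follows, and the cause was not tested. For depletion minus control, Tgfb1 was -0.060 without a slide block, -0.071 with the replicate block, -0.11 with normexp and -0.13 without slide 4. Tgfbr2 was -0.17 with the mean of its probes, -0.072 with normexp, -0.078 with the replicate block, and -0.090, -0.12 and -0.013 without slides 2, 4 and 5. Without slide 4 Acvr2b was 0.18 and Id1 -0.0078, and without slide 1 Bmp4 was 0.052. For repletion minus depletion, Tgfbr2 was 0.029 in the fit of 2 groups, 0.011 with the mean of its probes, 0.11 with the replicate block, and 0.061, 0.029 and 0.037 without slides 2, 4 and 5. Tgfb1 was 0.039 without slide 1 and Bmp4 -0.046 with depletion replicate 1 moved. For repletion minus control, the fit of 2 groups gave Mstn 0.11 and Id1 -0.43, and Id1 was -0.12 and -0.17 without slides 3 and 4. Tgfb1 was 0.0044 with depletion replicate 1 moved and 0.21 and 0.045 without slides 1 and 2. Tgfbr2 was 0.036 without a slide block and with the replicate block, 0.015 with slide as a random block, 0.0014 with the authors' values, and 0.23 and 0.025 without slides 1 and 5. Bmp4 was 0.11 without slide 1 and Acvr2b -0.010 without slide 2.

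With arrays left out singly, depletion minus control ran from -0.28 to 0.18 for Acvr2b, -0.13 to 0.28 for Tgfb1, -0.12 to 0.14 for Tgfbr2 and -0.0078 to 0.56 for Id1. Repletion minus depletion ran from -0.24 to 0.045 for Tgfb1 and -0.16 to 0.066 for Tgfbr2. Repletion minus control ran from -0.014 to 0.40 for Acvr2b, -0.22 to 0.20 for Tgfb1, -0.098 to 0.088 for Tgfbr2, -0.16 to 0.038 for Bmp4 and -0.17 to 0.36 for Id1. Smad9 and Grem1 gave no value where a probe had to be well above background on all 14 arrays.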
